A study of Rattus norvegicus with 4 samples.

Results

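Of 17934 long non-coding RNA (lncRNA) transcripts listed in primary cardiomyocytes of newborn rats, 48 had at 48 h at most 0.5 times their 24 h level, both in normal and in high glucose. They were chosen by their measured levels: a mean count of 20 or more over the 4 libraries, which 5038 transcripts reached, and a ratio of 48 h over 24 h of at most 0.5 in each medium, taken on FPKM + 0.5. FPKM is the read count scaled by transcript length and library total, so it can be compared between transcripts, and 0.5 is a pseudocount that damps the ratios of low transcripts. The size of the fall from 24 h to 48 h is therefore part of how the transcripts were picked, and it is given here as a description, with no test. The filter on counts could be passed through the 24 h libraries alone, so a transcript that all but vanished at 48 h had to be well covered at 24 h.

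The cells came from Sprague-Dawley rats aged 1 to 2 days and were cultured in M199 medium, which for all groups held carnitine, creatine and taurine. Normal glucose medium held 5 mmol/l glucose with 28 mmol/l mannitol, a sugar alcohol that evens out the osmolality, and high glucose medium held 33 mmol/l glucose. Total RNA was sequenced after 24 h and 48 h, with 1 library for each of the 4 combinations of medium and time. There are no replicates, so no difference between libraries has a replicate check. In a culture sequenced in bulk, fewer cells of a type and less RNA per cell cannot be told apart. The tables name no genes, so the labelled cell type was not checked against marker genes.

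LncRNAs are RNA polymerase transcripts without a recognised protein-coding frame. Many are spliced like messenger RNAs, are present at low levels, and are restricted to particular cell types or states, and several are known to act on chromatin, splicing or growth of heart muscle cells. Cardiomyocytes isolated from newborn rats attach, spread and change their gene expression during their first days in culture. Most transcripts here carry identifiers of NONCODE, a catalogue of non-coding transcripts, whose functions are mostly unknown. No function is given below for a single transcript, because the files pair none of the identifiers with a gene name.

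Counts of lncRNA transcripts summed to between 846946 and 1075428 per library, and the library totals recovered from the FPKM values lay between 11877876 and 15654183. Of the 5038 transcripts with enough counts, 3.53% (178) were at a ratio of 0.5 or less at 48 h in normal glucose, 7.68% (387) in high glucose, and 0.953% in both, which are the 48 members. A further 0.695% were at least 2-fold higher at 48 h in both media. Over all 5038 the median log2 ratio of 48 h over 24 h was 0.03 in normal and -0.11 in high glucose, and TMM scaling, a correction for overall composition, moved these medians to 0.01 and 0. The members' medians were -2.27 in normal and -2.39 in high glucose.

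**Figure D1:**
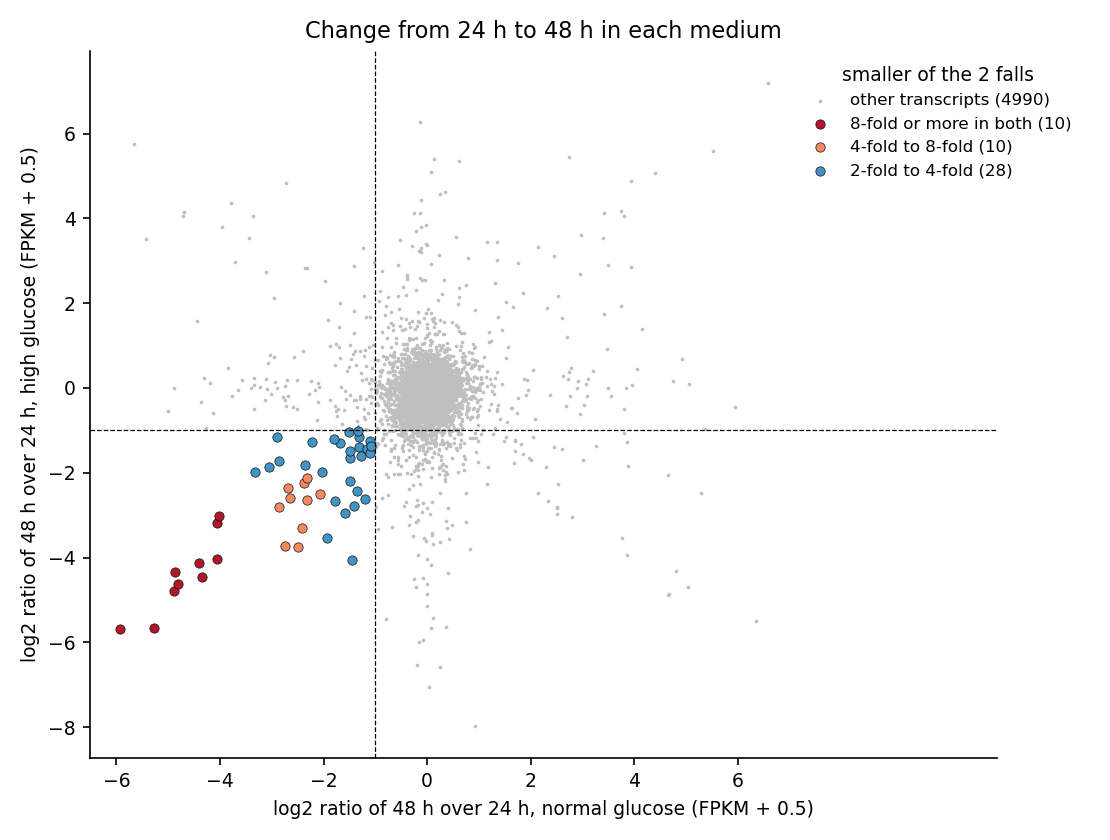
Each point is 1 of the 5038 transcripts, with the log2 ratio of 48 h over 24 h in normal glucose on the x axis and in high glucose on the y axis, both on FPKM + 0.5. Dashed lines mark a ratio of 0.5, and the coloured points below and left of them are the 48 members, 10 of which reached an 8-fold fall in both media.

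The median member stood at 9.75 FPKM in normal and 7.64 FPKM in high glucose at 24 h, and at 0.994 and 0.579 FPKM at 48 h. Over all 5038 transcripts these medians were 4.66 and 4.53 FPKM at 24 h and 4.67 and 4.05 FPKM at 48 h. The median member was thus above the median of the 5038 at 24 h and below it at 48 h, which follows in part from the rule. They took 1.49% of the lncRNA counts in normal and 0.892% in high glucose at 24 h, and 0.215% and 0.140% at 48 h. A single transcript, NONRATT004088.2, made up much of the 24 h share in normal glucose, and without it the shares were 0.875%, 0.813%, 0.142% and 0.117%. In 45 of the 48 members both 24 h libraries stood above both 48 h libraries, which was so for 944 of the 5038 transcripts (18.7%) and follows in large part from the rule. In the other members, NONRATT020083.2, NONRATT011453.2 and NONRATT011397.2, the glucose difference was large enough for a 48 h library of one medium to reach a 24 h library of the other.

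**Figure D2:**
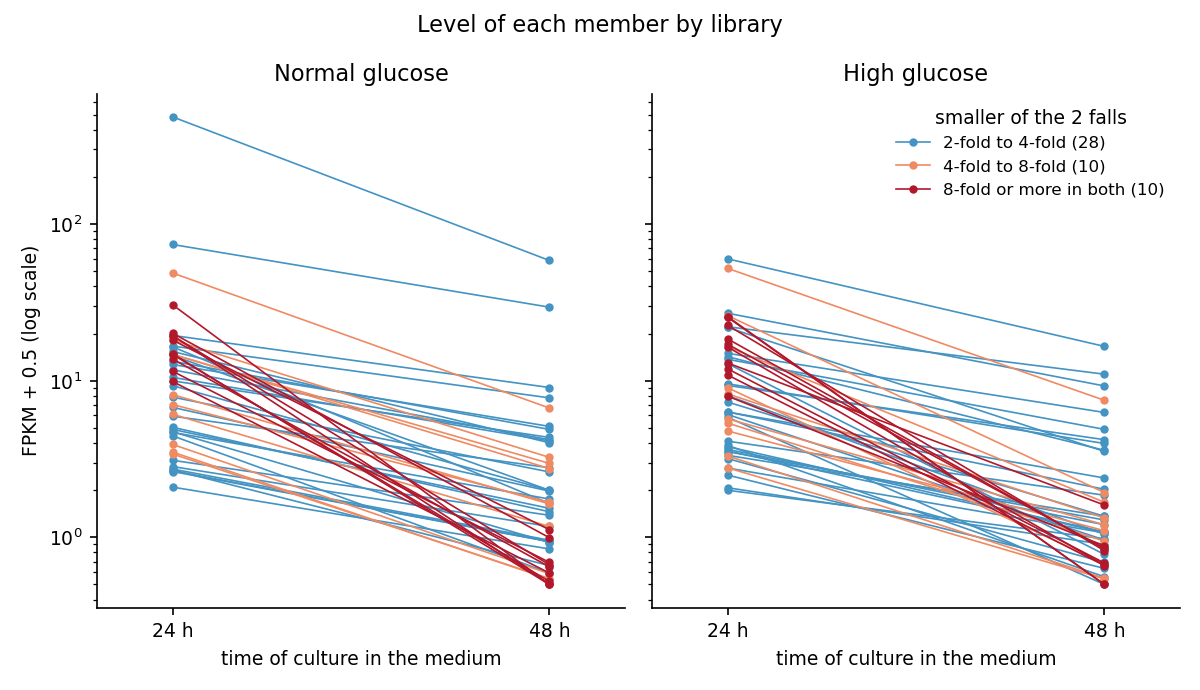
Each line is 1 of the 48 members, drawn from its FPKM + 0.5 at 24 h to that at 48 h on a log axis, in normal glucose (left) and high glucose (right). Lines are coloured by the smaller of the falls in both media, and those of 8-fold or more start between 9.39 and 30.1 FPKM in normal glucose and end at 0.618 FPKM or less.

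For some members only the levels are given. Elsewhere the size of a fall is a ratio of counts per library total, without a pseudocount unless FPKM + 0.5 is named. Its exact 95% interval, in parentheses, covers counting error only. The same ratios chose the members, so the intervals give the precision of a fall and test nothing. For 15 members an interval reached below a 2-fold fall. Grouped by the smaller of the falls in both media on FPKM + 0.5, with limits set after the values were seen, 10 members were lower by 8-fold or more, 10 by 4-fold to 8-fold and 28 by 2-fold to 4-fold. The pseudocount shrinks the falls of low transcripts: without it 14 members were 8-fold or more lower in both media, the same 10 and NONRATT021215.2, NONRATT028750.2, NONRATT028578.2 and NONRATT015474.2.

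The 10 members with falls of 8-fold or more on FPKM + 0.5 were near absent at 48 h. Their counts ran from 76 to 716 in normal and from 86 to 812 in high glucose at 24 h, and from 0 to 10 and 0 to 12 at 48 h. The only Ensembl transcript among the members, ENSRNOT00000090394, led this group by the smaller fall on FPKM + 0.5. It is spliced, 459 nt long, and listed in NONCODE as NONRATT033548.1 (chromosome 7, 83989468 to 83991369 in rat build rn6). It stood at 30.1 FPKM from 164 reads in normal and 25.2 FPKM from 181 reads in high glucose at 24 h and was listed in neither 48 h library. Against a floor of 3 counts per library the fall was 68.4-fold in normal and 54.8-fold in high glucose, with counting intervals from 55.0 and 44.1 upward. NONRATT011024.2 (chromosome 15, 48445767 to 48564098), a spliced transcript of 338 nt drawn from a span of 118 kb, was likewise unlisted at 48 h. It stood at 18.9 and 24.9 FPKM at 24 h, 31.7-fold and 40.0-fold above the floor at 48 h, with intervals from 25.1 and 32.1 upward. These 2 were the members missing from both 48 h libraries. At 24 h high over normal glucose was 0.837 (0.674 to 1.04) for ENSRNOT00000090394 and 1.32 (0.986 to 1.77) for NONRATT011024.2, intervals that include 1.

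NONRATT005910.2 (chromosome 10, 82841522 to 82852738, spliced, 656 nt) stood at 14.4 FPKM in normal and 22.1 FPKM in high glucose at 24 h. At 48 h it was unlisted in normal glucose, 46.7-fold lower against the floor (interval from 37.4 upward). In high glucose it had 3 reads at 48 h, 68.8-fold lower (interval 23.2 to 336). NONRATT008808.2 (chromosome 13, 69908813 to 69917207, spliced, 3017 nt) had 510 and 752 reads at 24 h and 1 and 7 reads at 48 h, in normal and high glucose. Its level thus went from 14.2 to 0.0223 FPKM in normal and from 15.9 to 0.163 FPKM in high glucose. The fall was 638-fold in normal (114 to 25243) and 97.6-fold in high glucose (47.1 to 244). NONRATT021972.2 (chromosome 4, 179482558 to 179512484), at 4545 nt the longest member, had 716 and 812 reads at 24 h and 10 and 12 at 48 h. Its levels were 13.3 and 11.4 FPKM at 24 h and 0.148 and 0.186 FPKM at 48 h, and high over normal glucose was 0.861 (0.777 to 0.953) at 24 h. Its falls were 89.6-fold in normal (48.4 to 188) and 61.5-fold in high glucose (35.0 to 119.5).

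Single-block transcripts, whose length equals their span on the genome, made up 3 of these 10. NONRATT016651.2 (chromosome 2, 196198306 to 196198713, 408 nt) stood at 19.6 and 18.0 FPKM at 24 h and at 0.495 and 0.345 FPKM at 48 h. The fall was 39.6-fold in normal (13.1 to 195) and 52.3-fold in high glucose (14.1 to 437). NONRATT027756.2 (chromosome 8, 63637983 to 63639583, 1601 nt) went from 18.9 to 0.168 FPKM in normal glucose, 112-fold lower (43.5 to 414), and from 16.6 to 0.351 FPKM in high glucose, 47.3-fold lower (23.8 to 110). In NONRATT005478.2 (chromosome 10, 45833261 to 45835013, 1753 nt) the levels were 11 and 10.4 FPKM at 24 h and 0.192 and 0.160 FPKM at 48 h, with falls of 57.3-fold (24.2 to 178) and 64.7-fold (25 to 239). All 3 overlapped no other listed transcript.

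Spliced transcripts NONRATT012853.2 and NONRATT003163.2 closed the group of 10. NONRATT012853.2 (chromosome 17, 17971175 to 17984771, 735 nt) had 82 and 86 reads at 24 h and 1 and 4 reads at 48 h, a fall of 103-fold in normal (17.9 to 4100) and 19.5-fold in high glucose (7.36 to 73.3). NONRATT003163.2 (chromosome 1, 197909558 to 197911021, 762 nt) went from 17.7 to 0.618 FPKM in normal glucose, 28.6-fold lower (13.6 to 72.3), and from 12.5 to 1.11 FPKM in high glucose, 11.3-fold lower (6.27 to 22.3). In both, the fall in high glucose was nominally the smaller, with overlapping intervals.

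**Figure D3:**
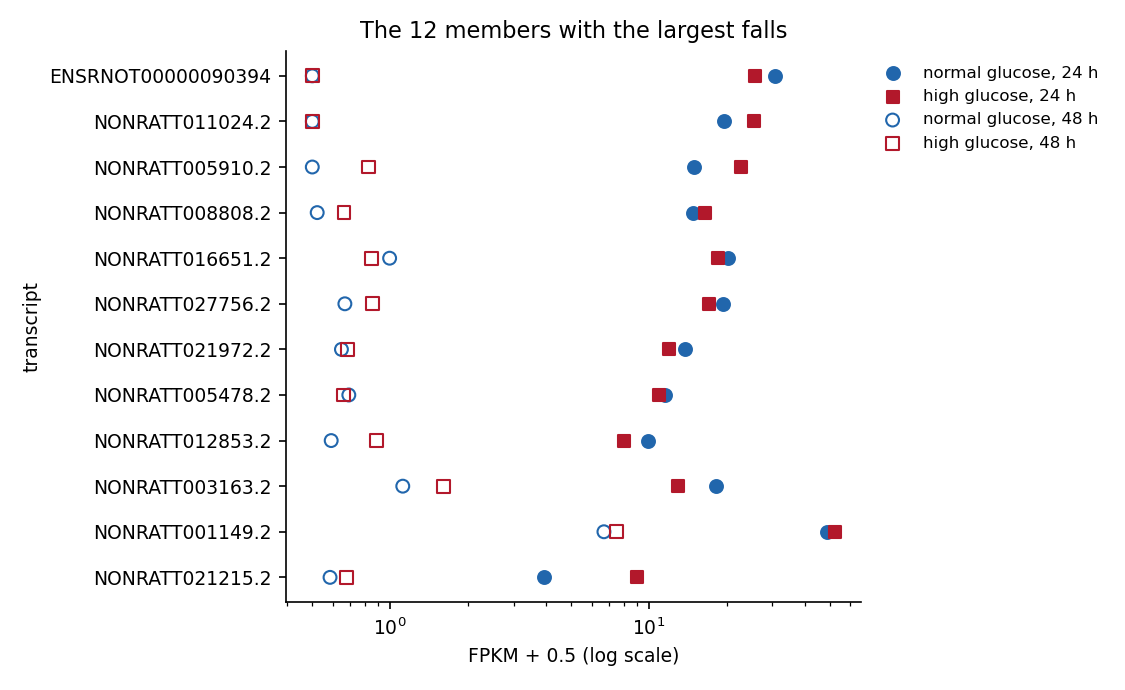
Levels of the 12 members with the largest smaller fall, as FPKM + 0.5 on a log axis, with filled symbols for 24 h and open symbols for 48 h, circles for normal and squares for high glucose. In all 12 the filled symbols lie right of the open ones, and only NONRATT021215.2 has its 24 h symbols more than 2-fold apart.

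Among the 10 members with falls of 4-fold to 8-fold on FPKM + 0.5, NONRATT001149.2 (chromosome 1, 190555149 to 190560594, spliced, 793 nt) was the most abundant and kept a measurable level at 48 h. It stood at 48.3 FPKM in normal and 51.7 FPKM in high glucose at 24 h and at 6.20 and 7.0 FPKM at 48 h, from 455, 642, 73 and 79 reads. The fall was 7.80-fold in normal (6.08 to 10.1) and 7.38-fold in high glucose (5.84 to 9.45), and the intervals of both media overlap. Over the 10 transcripts of this group levels ran from 2.91 to 48.3 FPKM in normal glucose at 24 h and from 0.0407 to 6.20 FPKM at 48 h. Without the pseudocount the falls in this group reached 73.8-fold in normal and 59.1-fold in high glucose, in transcripts with as few as 1 read at 48 h.

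The 28 members with falls of 2-fold to 4-fold on FPKM + 0.5 ranged most widely in level, from 1.59 to 484 FPKM in normal glucose at 24 h. NONRATT008218.2 (chromosome 13, 50252710 to 50258947, spliced, 417 nt) stood at 19.0 and 26.5 FPKM at 24 h and at 8.56 and 8.77 FPKM at 48 h, lower by 2.22-fold (1.57 to 3.17) in normal and 3.02-fold (2.21 to 4.21) in high glucose. NONRATT007251.2 (chromosome 12, 8106660 to 8108972), unspliced and 2313 nt long, went from 16.2 to 7.28 FPKM in normal and from 14.5 to 5.77 FPKM in high glucose, from 444, 524, 250 and 190 reads. Its falls of 2.22-fold (1.90 to 2.6) and 2.51-fold (2.12 to 2.97) have narrow counting intervals, with lower bounds near 2-fold.

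Members just inside the threshold and transcripts just outside it were close in value. Inside, on the scale of FPKM + 0.5, the smaller log2 change was -1.09 for NONRATT011453.2 (normal glucose), -1.03 for NONRATT018272.2 (high glucose) and -1.01 for NONRATT011397.2 (high glucose). Outside, it was -0.996 for NONRATT008383.2 (normal glucose), -0.99 for NONRATT021093.2 (high glucose) and -0.99 for NONRATT024700.2 (high glucose). NONRATT021093.2 (chromosome 4, 6669290 to 6670030, unspliced, 741 nt) lies 323 bases from the member NONRATT021094.2 (6670354 to 6673645, spliced, 759 nt). Its levels were 9.43 and 4.83 FPKM at 24 h and 3.63 and 2.18 FPKM at 48 h, and those of NONRATT021094.2 were 12.2 and 8.84 FPKM at 24 h and 4.61 and 3.70 FPKM at 48 h. Levels of both were lower at 48 h in both media.

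In structure, 36 of the 48 members were spliced (75.0%), against 2528 of the 5038 transcripts (50.2%), and 12 were single blocks. The median length was 1034 nt, close to the 1019 nt of all 5038, while the median span on the genome was 3706.5 bases against 2035. Spans of 50 kb or more were held by 4 members (8.33%, against 2.40%). Besides NONRATT011024.2 these were NONRATT014914.2 (chromosome 2, 248 kb), NONRATT013244.2 (chromosome 18, 132 kb) and NONRATT011453.2 (chromosome 16, 64.6 kb), each with a spliced length under 1 kb, at 816, 630 and 619 nt. NONCODE identifiers were carried by 47 members (97.9%, against 95.5%). None of the 136 transcripts with enough counts and an identifier of neither NONCODE nor Ensembl was a member, and these are only 2.70% of the 5038. The 48 lay on 17 chromosomes, with 6 on chromosome 8 (12.5%, against 5.48% of the 5038). None lay on chromosomes 9, 11, 19 and X, which hold 4.09%, 2.80%, 2.58% and 3.29% of the 5038. These shares describe the members, and no test was made of them.

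Members mostly lay far apart, with 3 close pairs. NONRATT021214.2 (chromosome 4, 29082368 to 29092718, 1396 nt) and NONRATT021215.2 (29083076 to 29092661, 787 nt) overlap, both spliced, and their counts need not be independent. NONRATT021214.2 stood at 8.80 and 9.06 FPKM at 24 h and at 1.49 and 3.47 FPKM at 48 h, and NONRATT021215.2 at 3.42 and 8.52 FPKM at 24 h and at 0.0856 and 0.179 FPKM at 48 h. Both were chosen for their falls, so a lower sum of the pair at 48 h follows from the rule. The locus holds 3 listed transcripts, and the one that is no member was listed only in normal glucose at 24 h. NONRATT007250.2 (chromosome 12, 8102901 to 8106380, spliced, 2134 nt) ends 279 bases before NONRATT007251.2 and went from 2.6 to 0.883 FPKM in normal and from 3.02 to 0.791 FPKM in high glucose. NONRATT004764.2 (chromosome 10, 82758549 to 82760300, spliced, 648 nt) lies 81.2 kb from NONRATT005910.2. Both were lower at 48 h and higher in high than in normal glucose at 24 h, by 2.26-fold (1.72 to 2.98) and 1.54-fold (1.22 to 1.95).

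The rule did not use the other transcripts at a member's locus. Their values were set beside those of the member, with a locus taken as a chain of listed spans that overlap by at least 1 base. Of the 48 members, 24 had no other listed transcript at their locus (50%, against 66.0% of the 5038). For the other 24, the summed FPKM of the locus, member included, was at a ratio of 0.5 or less in both media for 12 and above it in 1 or both media for 12. These sums hold the member, so where the others are low the outcome follows from the rule. The summed others had a mean count of 20 or more in 13 cases, and in 4 of these the sum with the member was at 0.5 or less in both media. Without the member, the median log2 ratio of the 13 sums of others was 0.03 in normal and -0.36 in high glucose, for 48 h over 24 h. Over all 5038 transcripts these medians were 0.03 and -0.11. Of these 13 sums, 9 were within 2-fold in both media, and no background share was computed for such sums. The 2 cases with the others at 0.5 or less in both media were the overlapping members NONRATT021214.2 and NONRATT021215.2 seen from each side. In none of the remaining 11 did the others reach 0.5 in both media, which only 0.953% of the 5038 transcripts did. A count of 0 is thus the usual outcome and is not read as a result about these loci. The libraries kept the strand, but the tables give none and the strand setting of the counting is not given in the labels. Reads shared by overlapping transcripts cannot be separated, and how they were divided was not tested.

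**Figure D4:**
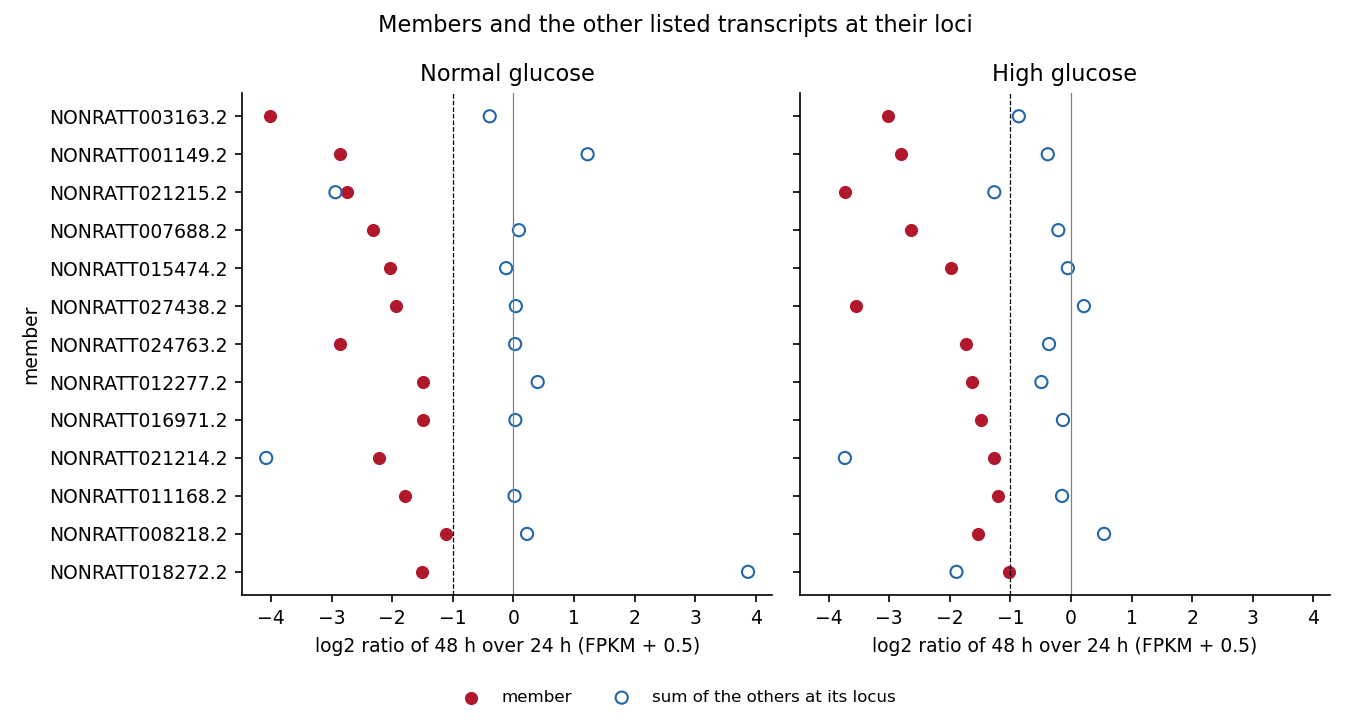
Log2 ratios of 48 h over 24 h (FPKM + 0.5) in normal glucose (left) and high glucose (right) for the 13 members whose other listed transcripts had a mean count of 20 or more. Filled points are the members, open points the sum of the others at the same locus, and the dashed line marks a ratio of 0.5. For 9 of the 13 members the open points lie within 2-fold of no change in both media. No background share was computed for this count.

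At some loci the member was lower at 48 h while the sum of its partners was within 2-fold. The examples were chosen after their values were seen, except NONRATT008218.2 and NONRATT003163.2. NONRATT015474.2 (chromosome 2, 189448002 to 189450111) is unspliced, 2110 nt long, and stood at 2.19 and 2.00 FPKM at 24 h and at 0.160 and 0.133 FPKM at 48 h. The 8 other transcripts of that locus summed to 38.1 and 30.9 FPKM at 24 h and 35.0 and 29.7 FPKM at 48 h. NONRATT007688.2 (chromosome 12, 2588821 to 2590435, spliced, 1187 nt) made up 30.2% and 33.0% of the summed FPKM of its locus at 24 h and 5.66% and 5.76% at 48 h. Its level went from 7.66 to 1.13 FPKM in normal and from 7.75 to 0.829 FPKM in high glucose, and the 6 others went from 17.7 to 18.9 and from 15.8 to 13.6 FPKM. The share of NONRATT008218.2 at its locus was 42.2% and 54.1% at 24 h and 21.9% and 20.9% at 48 h, where the sum of its 3 partners went from 26.0 to 30.5 FPKM in normal and from 22.5 to 33.1 FPKM in high glucose. The sum of the 4 partners of NONRATT003163.2 went from 6.98 to 5.20 FPKM in normal and from 5.94 to 3.04 FPKM in high glucose, a smaller change in the direction of the member.

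Nearby transcripts that do not overlap a member were also compared. Within 10 kb of 10 members lay 13 such transcripts with enough counts that were no members, and 5 of the 13 are also among the locus partners summed above. Their median log2 ratio of 48 h over 24 h was 0.04 in normal and -0.14 in high glucose, close to the 0.03 and -0.11 of all 5038. Of the 13, 10 were within 2-fold in both media, with no background share computed. None was at 0.5 or less in both media (0.953% of the 5038), 1 was so in normal glucose alone and 2 in high glucose alone. These counts are not read as a result about the surroundings of the members. NONRATT021035.2, which lies 155 bases from NONRATT021972.2, stood at 12.4 FPKM in normal and 13.7 FPKM in high glucose at 24 h and at 12.8 and 7.83 FPKM at 48 h. NONRATT021972.2 itself was at 0.148 and 0.186 FPKM at that time.

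The size of the fall was next compared between the media. Both falls chose the members, so the shares here are a description, and their distance to those of the 5038 is not read as a result. On FPKM + 0.5 the log2 fall was larger in high glucose for 23 of the 48 members (47.9%), against 61.7% of the 5038 transcripts with the lower ratio there. The median difference between the media was 0.03 in members and -0.15 over all 5038. A fall at least 2-fold larger in high than in normal glucose was found in 7 members (14.6%, against 9.11% of the 5038) and the reverse in 5 (10.4%, against 5.99%). NONRATT003046.2 (chromosome 1, 171994351 to 171995362, unspliced, 1012 nt) stood at 12.8 and 12.4 FPKM at 24 h and at 4.39 FPKM in normal and 0.278 FPKM in high glucose at 48 h. The fall was 2.92-fold in normal (2.17 to 3.96) and 44.5-fold in high glucose (17.1 to 165). NONRATT009420.2 (chromosome 14, 71454496 to 71462646, spliced, 2408 nt) differed the other way, from 16 to 1.15 FPKM in normal, 13.9-fold lower (10.1 to 19.7), and from 13.7 to 3.09 FPKM in high glucose, 4.44-fold lower (3.60 to 5.53). In both transcripts the counting intervals of the falls do not overlap, though each rests on 1 library per medium and time.

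Whether the members also differed between high and normal glucose at one time was asked of the same 4 libraries. These values chose the members, so the shares below are a description and nothing is read from their distance to the background. At 24 h, 4 members were at least 2-fold higher in high glucose (8.33%, against 3.31% of the 5038) and 7 at least 2-fold lower (14.6%, against 3.37%). At 48 h, 4 were at least 2-fold higher (8.33%, against 4.19%) and 10 at least 2-fold lower (20.8%, against 7.44%). Within 2-fold of the other medium at both times were 30 of the 48 members (62.5%), against 84.7% of the 5038. The 10 members with falls of 8-fold or more were all within 2-fold at 24 h, as were 4701 of the 5038 transcripts. Their ratios of high over normal glucose lay between 0.707 and 1.54. At 48 h those ratios rest on counts of 12 or fewer, and their intervals are wide, such as 0.496 to 3.24 around 1.25 for NONRATT021972.2. They have no bound on 1 or both sides for the 3 members with 0 reads in a library.

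**Figure D5:**
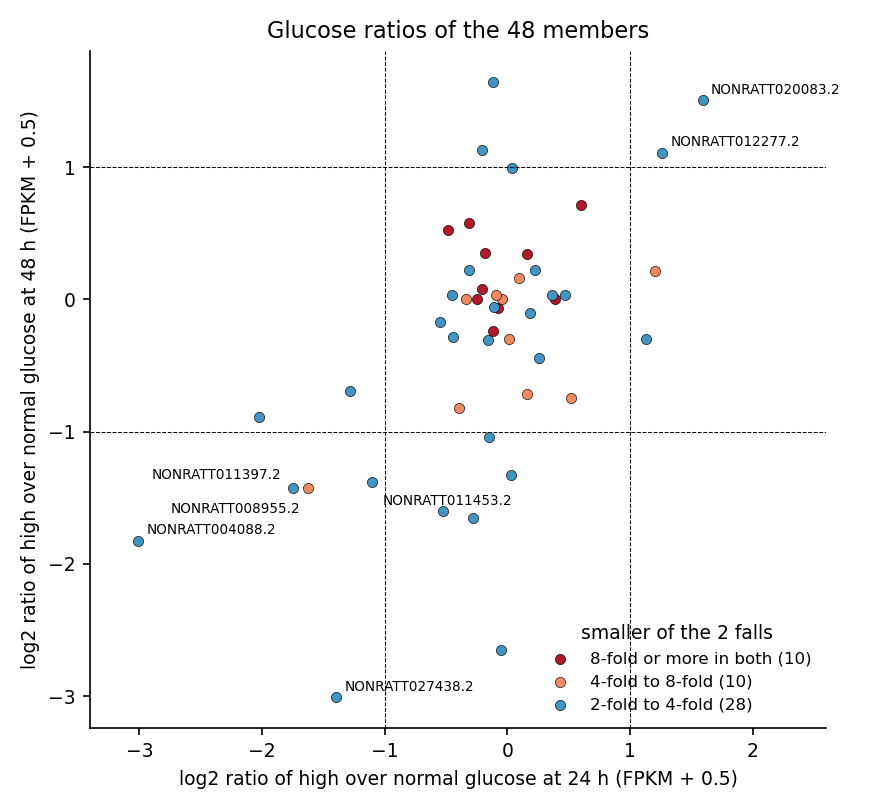
Log2 ratio of high over normal glucose at 24 h (x axis) and at 48 h (y axis) for each of the 48 members, on FPKM + 0.5, coloured by the smaller of the falls, with dashed lines at 2-fold. The 7 labelled members are past 2-fold in the same direction at both times, 5 lower and 2 higher in high glucose. No member is past 2-fold in opposite directions. Only 79 of the 5038 transcripts are, so the absence of such members is not read as a result.

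Lower in high glucose at both times were 5 members (10.4%, against 0.794% of the 5038). NONRATT004088.2 (chromosome 10, 14088182 to 14089332, spliced, 905 nt) was the most abundant member, with 484 FPKM in normal and 59.6 FPKM in high glucose at 24 h and 58.2 and 16.1 FPKM at 48 h, from 5204, 844, 782 and 207 reads. Normal exceeded high glucose 8.13-fold at 24 h (7.55 to 8.75) and 3.62-fold at 48 h (3.10 to 4.24). Its fall with time was 8.32-fold in normal (7.72 to 8.98) and 3.71-fold in high glucose (3.18 to 4.33). Its level in high glucose at 24 h was close to that in normal glucose at 48 h, at a ratio of 1.02 (0.928 to 1.13). NONRATT011397.2 (chromosome 16, 20294419 to 20295283, spliced, 682 nt) was also highest in normal glucose at 24 h and lowest in high glucose at 48 h, with 73.7 FPKM in normal and 21.6 FPKM in high glucose at 24 h and 29.0 and 10.5 FPKM at 48 h. It was lower in high glucose by 3.41-fold at 24 h (2.92 to 3.98) and 2.76-fold at 48 h (2.20 to 3.49).

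NONRATT008955.2 (chromosome 13, 89498043 to 89518944, spliced, 1283 nt) stood at 14.2 and 4.28 FPKM at 24 h and at 2.47 and 0.603 FPKM at 48 h, lower in high glucose by 3.33-fold (2.58 to 4.32) and 4.09-fold (2.09 to 8.75). NONRATT027438.2 (chromosome 8, 13861289 to 13871354, spliced, 1301 nt) had 230, 109, 68 and 0 reads in the order normal 24 h, high 24 h, normal 48 h and high 48 h. It was 2.78-fold lower in high glucose at 24 h (2.20 to 3.53). Against the floor of 3 counts it was 21.7-fold lower at 48 h, where the interval of high over normal glucose ran up to 0.0582. The 7 other transcripts of its locus summed to 11.8, 9.43, 12.2 and 11 FPKM in that order, a narrower range than that of the member. NONRATT011453.2, from the span of 64.6 kb, stood at 5.44, 2.27, 2.28 and 0.568 FPKM, from as few as 5 reads.

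Higher in high glucose at both times were 2 members of lower level (4.17%, against 0.695% of the 5038). NONRATT020083.2 (chromosome 3, 173962127 to 173963500, unspliced, 1374 nt) stood at 1.59 FPKM in normal and 5.81 FPKM in high glucose at 24 h and at 0.343 and 1.89 FPKM at 48 h. High exceeded normal glucose 3.65-fold at 24 h (2.38 to 5.8) and 5.52-fold at 48 h (2.43 to 14.7), the latter from 7 and 37 reads. NONRATT012277.2 (chromosome 17, 9685876 to 9692162, spliced, 1382 nt) stood at 2.13 and 5.82 FPKM at 24 h and at 0.438 and 1.53 FPKM at 48 h, higher by 2.73-fold (1.87 to 4.09) and 3.48-fold (1.61 to 8.34). The 2 other transcripts at its locus, in sum, stood at 4.88 and 3.51 FPKM at 24 h and at 6.61 and 2.36 FPKM at 48 h, lower in high glucose at both times.

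Past 2-fold at a single time were 11 further members, named here after their values were seen. At 24 h NONRATT024763.2 and NONRATT011168.2 were lower in high glucose, by 4.56-fold (3.20 to 6.63) and 2.89-fold (1.79 to 4.79), and NONRATT021215.2 and NONRATT004764.2 were higher. In normal and high glucose at 24 h NONRATT024763.2 had 142 and 41 reads, and the overlapping NONRATT024764.2 had 0 and 95. The non-member at the NONRATT021215.2 locus was listed in normal glucose alone at 24 h. How reads were divided between such overlapping transcripts was not tested. At 48 h NONRATT009420.2 and NONRATT005813.2 were higher in high glucose, by 2.70-fold (1.87 to 3.97) and 14.6-fold (2.22 to 618), the latter from 1 read in normal glucose. NONRATT003046.2, NONRATT028160.2, NONRATT014914.2, NONRATT002556.2 and NONRATT007317.2 were lower in high glucose at 48 h, by 15.8-fold (5.89 to 59.7), 21.1-fold (5.50 to 179), 4.21-fold (2.09 to 9.39), 3.88-fold (2.29 to 6.91) and 3.19-fold (0.822 to 18.0). The interval of NONRATT007317.2 includes 1. The high glucose library at 48 h also ran lower over all 5038 transcripts, with a median log2 ratio to normal glucose of -0.18 that TMM scaling moved to -0.02, and its part in these values was not tested.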

How the data were processed

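Read counts per lncRNA transcript and FPKM values were deposited for each of the 4 libraries, per the file headers. All listed counts are 1 or more, and an unlisted transcript was taken as 0. Libraries were strand-specific, per the labels' protocols. The submitters' processing notes name TopHat2 2.1.0, Cufflinks and the builds rn6 and Rnor_6.0. The counter, its strand setting and the annotation: not given in the sources used here. Transcript length was deposited with the normal glucose library at 24 h, per the file header, and 24 lengths among the 5038 transcripts were recovered from count and FPKM, as were the library totals. A length of at least 99% of the span was called a single block. Members and lists were chosen with earlier results of these data known. Of the members, 0 matched the RefSeq gene table (build GRCr8), so no gene names or sequences are given. Folds are ratios of counts over library totals, with exact Clopper-Pearson intervals conditional on the sum of both counts (scipy 1.17.1), at 95%. A transcript at 0 was set against a floor of 3 counts per library. Reads copied by PCR carry no molecular identifiers here, so they are not independent. TMM factors came from edgeR 4.0.16. Rule and intervals were run on simulated counts that held counting error only. That checks the calculation and says nothing of the spread between cultures.

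Named transcripts are the examples given with the set, the 12 largest smaller falls, Ensembl members, the 5 most abundant at 24 h, the 3 most abundant single blocks, members sharing a locus, 3 just inside and 3 just outside the threshold, and members past 2-fold between media at both times. Others were named after their values were seen, as the text says.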

Additional observations from a re-analysis of the deposited data

How the results depend on the processing

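The number of members moved most with the filters: 88 without a filter on low counts and 20 with a ratio of at most 0.25. It was 64 and 40 with pseudocounts of 0.1 and 1 FPKM, 61 and 32 with mean counts of 10 and 50 or more, 47 with each of TMM factors, size factors and equal sums, which kept 46, 47 and 46 of the 48, and 36 loci when values were summed per locus. Members at least 2-fold higher in high glucose at 48 h were 4, but 8 with a pseudocount of 0.1 FPKM and 2 with 1 FPKM. The other glucose counts stayed within 1.5 times of their values under all 5 of these pseudocount and scaling settings, and the locus count was 2 with direct overlap as well. With the pseudocount, 9 of 40 log2 falls of the 23 named members lay below the counting interval of the same fall without it. For 6 more the fall without a pseudocount could not be given because of 0 counts. No library can be left out, since each group has 1.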

Other observations

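Transcripts beside members showed other patterns over the 4 libraries, given here as values and picked after they were seen. NONRATT018275.2 (chromosome 3, 62486953 to 62491356, spliced, 4317 nt), which overlaps the member NONRATT018272.2, stood at 2.44 FPKM in normal and 37.2 FPKM in high glucose at 24 h and at 42.7 and 9.95 FPKM at 48 h, from 125, 2512, 2738 and 611 reads. It was thus higher in high glucose at 24 h and lower at 48 h, while NONRATT018272.2 stood at 2.23 and 1.5 FPKM at 24 h and at 0.458 and 0.479 FPKM at 48 h. NONRATT024764.2 (chromosome 6, 2880706 to 2886462, 815 nt) overlaps the member NONRATT024763.2 over most of its span. It had 0, 95, 82 and 32 reads in the order normal 24 h, high 24 h, normal 48 h and high 48 h, where NONRATT024763.2 had 142, 41, 19 and 7. NONRATT009419.2, 2251 bases from the member NONRATT009420.2, stood at 4.44 and 8.00 FPKM at 24 h and at 8.21 FPKM in normal and 0.116 FPKM in high glucose at 48 h, whereas NONRATT009420.2 was the lower in normal glucose then.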
